A study of Caenorhabditis elegans with 12 samples.

Results

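Inside MRG-1 binding sites that both strains share, N2 peaks often covered bases that no *glp-4(bn2)* peak reached. These N2-only stretches are runs of at least 150 bp on chromosomes II, III, IV, V and X that peaks of at least 2 N2 samples and of no *glp-4(bn2)* sample covered, in a site that also holds a peak of that mutant. They were chosen by the borders of the called peaks in all 6 samples. Their number, length, place and chromosome are therefore descriptions, and only samples left out of the choice give a test. The rule found 1725 stretches, out of 3446 N2-only stretches of that length in any site on all 6 chromosomes. A further 828 N2-only stretches of the same 5 chromosomes lay in sites without a *glp-4(bn2)* peak.

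MRG-1 ChIP-seq, which recovers the DNA bound by MRG-1 with an antibody and maps it by sequencing, was performed on whole worms at the L4 stage, in triplicate for each strain. The wild type was the Bristol strain N2, and the germline-less strain was SS104, which per the sample labels carries the *bn2* allele of *glp-4* on chromosome I. The strain list of the paper gives SS104 with the allele *bn11*, while its ChIP-seq methods name *bn2* as the labels do. Larvae of both strains were grown at 25° from stocks kept at 15°, as the sample labels give it. The *bn2* allele is temperature-sensitive and the mutants lose the germline at 25°, which is why the study compared the strains: N2 holds germline and soma, and *glp-4(bn2)* mainly soma. The peak lists hold no measure of the allele or of how much germline remained. Nothing in the labels says whether the 3 samples of a strain came from separate cultures, so their spread may be technical.

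MRG-1 is the worm member of the MRG15 family of chromodomain proteins. MRG15 in humans binds the histone mark H3K36me3, which lies over the bodies of transcribed genes. In the worm, MRG-1 is required for the development of germ cells, and the methyltransferase MES-4 keeps H3K36me3 on germline-expressed genes. The X chromosome is largely silent in the worm germline, and most germline-expressed genes lie on the autosomes.

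Each sample has a list of 7073 to 7737 peaks that the authors called with MACS2 at a q-value of 0.05, and these cover between 13.6 and 17.6 Mb. A site is a set of peaks of the 6 lists joined where they overlap by at least 1 bp. The level of background shared by most of the weaker peaks of a list was recovered from their p-values, leaving out the peaks of lowest p-value. It was 96.8, 88.9 and 77.2 for N2 replicates 1, 2 and 3 in extended reads per base. For *glp-4(bn2)* replicates 1, 2 and 3 it was 68.9, 60.6 and 68.9, so this level was higher in every N2 list. The peaks on it numbered 3642, 3708 and 3989 in the N2 lists and 4009, 4094 and 4113 in the *glp-4(bn2)* lists. The lowest fold enrichment among peaks called at that level lay between 1.31 and 1.34 for N2 lists and between 1.36 and 1.37 for *glp-4(bn2)* lists. The part of this difference in the N2-only stretches was not tested. A site border also depends on the 300 bp to which reads were extended, and no peak is shorter than that.

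A total of 3458 sites held a *glp-4(bn2)* peak and peaks of at least 2 N2 samples, and 1135 of them (32.8%) held an N2-only stretch. By the mirrored rule, 593 of 3410 sites (17.4%) held a *glp-4(bn2)*-only stretch, and there were 907 such stretches. Both kinds occurred in 32 sites, which are 2.82% of the sites with an N2-only stretch and 5.40% of those with a *glp-4(bn2)*-only stretch. The N2-only stretches added up to 0.934 Mb, or 7.07% of the 13.2 Mb in the sites that could hold one, and the *glp-4(bn2)*-only stretches to 0.385 Mb. They made up 67.6% of all N2-only stretches of the 5 chromosomes and 59.0% of their bases. Since whole worms were used, fewer cells with bound MRG-1 and less bound MRG-1 per cell cannot be told apart.

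Most of the stretches sat at the edge of a shared site rather than inside it. A stretch was counted as an edge stretch where *glp-4(bn2)* peaks covered bases of the site on 1 side of it only, and as gap-filling where they did so on both sides. Edge stretches numbered 1253 (72.6%, 95% Wilson interval 70.5% to 74.7%) and gap-filling stretches 472 (27.4%, interval 25.3% to 29.5%). The intervals cover counting error only. By bases, the edges held 0.676 Mb and the filled gaps 0.258 Mb. Among the *glp-4(bn2)*-only stretches, 209 (23.0%, interval 20.4% to 25.9%) filled gaps between N2 bases, so edges prevailed in that direction too. Of the 1135 sites, 784 held edge stretches only, 158 held gap-filling stretches only and 193 held both.

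**Figure D1:**
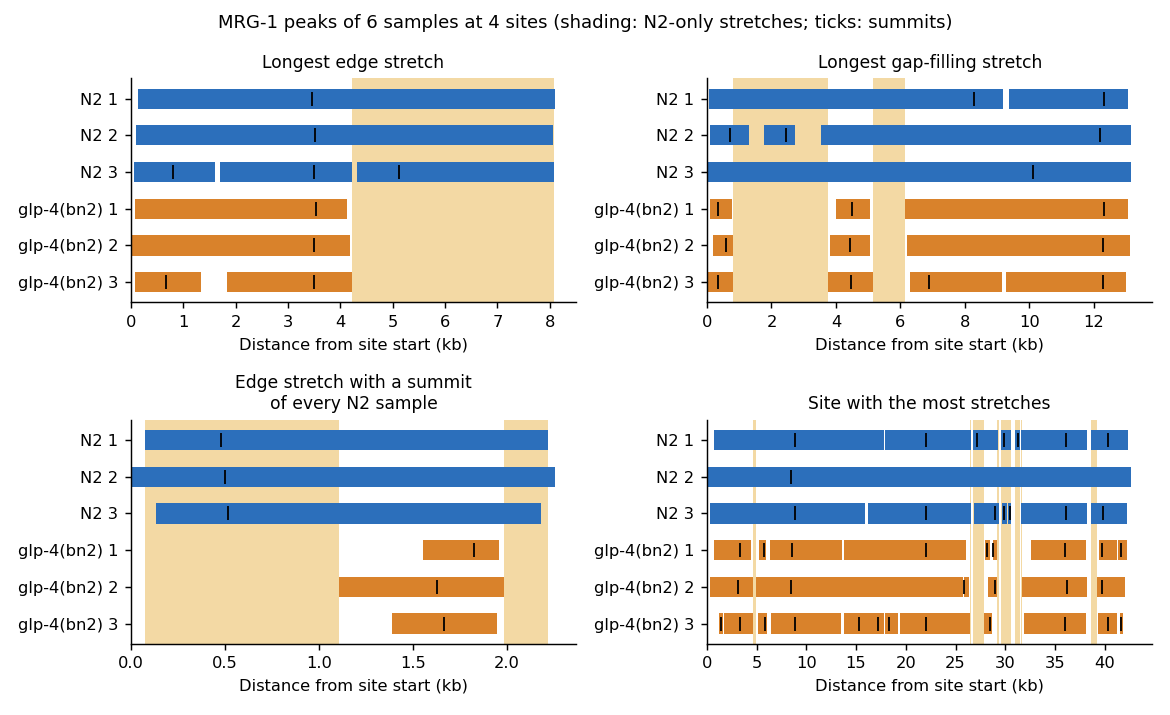
MRG-1 peaks of the 6 samples (bars, N2 blue and *glp-4(bn2)* orange, ticks at summits) at 4 sites, against the distance from the site start in kb, with N2-only stretches shaded. N2 peaks run on past the last *glp-4(bn2)* peak at the longest edge stretch (3859 bp), and bridge the space between *glp-4(bn2)* peaks at the longest gap-filling stretch (2949 bp).

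The longest edge stretch shows the common form. It lay on chromosome II from 12919285 to 12923143 (3859 bp, ce10), at the higher-coordinate end of a site of 8098 bp, and took up 47.7% of that site. N2 replicates 1, 2 and 3 covered 3859, 3828 and 3775 bp of it. The nearest *glp-4(bn2)* peak ended 92, 50 and 0 bp away in replicates 1, 2 and 3. The 3 N2 samples thus reached nearly the same end, and the 3 *glp-4(bn2)* samples stopped within 100 bp of each other. N2 replicates 1 and 2 each covered the stretch with a single peak whose summit lay in the shared bases, with folds of 5.92 and 6.06, while replicate 3 had a separate peak of fold 3.41 with its summit in the stretch. The nearest *glp-4(bn2)* peaks had folds of 4.04, 6.77 and 5.26.

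The next longest edge stretches varied in how they met the *glp-4(bn2)* peaks. On chromosome II, 3638 bp from 7065913 to 7069550 opened a site of 13078 bp, and N2 replicates 1, 2 and 3 covered 3233, 3638 and 3638 bp. Also on chromosome II, 3512 bp from 7133436 to 7136947 closed a site of 7235 bp, with 3512, 3512 and 3393 bp covered. The *glp-4(bn2)* borders were farther apart here than at the longest stretch, since the nearest peak lay 0, 182 and 1215 bp away in replicates 1, 2 and 3. On chromosome V, the 3405 bp from 10212762 to 10216166 were set apart from all *glp-4(bn2)* peaks of their site by at least 347 bp. N2 replicates 1 and 3 had a summit of their own in it, with folds of 4.01 and 3.47. On chromosome IV, 3300 bp from 6526448 to 6529747 had no summit of any N2 sample and were covered over 3300, 3300 and 3275 bp. The longest stretch of chromosome III was also an edge stretch, with 2904 bp from 12377548 to 12380451, and it took up 72.0% of its site.

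Edge stretches were mostly continuations of a peak and only in part peaks of their own. *glp-4(bn2)* bases bordered 1047 of the 1253 (83.6%) directly. The other 206 lay a median of 430 bp away from the nearest *glp-4(bn2)* base. In 1046 edge stretches (83.5%), a peak of at least 2 N2 samples reached from the stretch into bases that *glp-4(bn2)* peaks covered, and in 886 this held for all 3 N2 samples. No N2 summit lay in 866 of them (69.1%). Summits of at least 2 N2 samples lay in 182 (14.5%), and these were longer, with a median of 669.5 bp against 300 bp for those without a summit. The stretches occurred about equally at both ends of a site, with 634 at the lower-coordinate and 619 at the higher-coordinate end. Of the 977 sites with an edge stretch, 173 had one at both ends.

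The outer end of an edge stretch came close to the border of the site, at a median distance of 73 bp (quartiles 30 and 163 bp), and 757 (60.4%) ended within 100 bp of it. The distance to the border itself comes from the N2 sample that reached farthest, since the rule needs only 2 of the 3. The error of the borders was read at the 962 site ends that had an edge stretch and peaks of all 6 samples. There the outermost borders of the 3 N2 samples spanned a median of 186.5 bp and those of the 3 *glp-4(bn2)* samples 190.5 bp. The mean borders of the strains were a median of 540.2 bp apart. All 3 N2 borders lay outside all 3 *glp-4(bn2)* borders at 856 ends (89.0%), a share that the rule itself raises because it needs at least 2 of them to do so. At 441 ends (45.8%), even the nearest borders of the strains were farther apart than the borders within either strain. For the rest of the ends, the spread between samples of a strain was as large as the step between the strains, or larger. The rule picks ends with at least 150 bp of N2-only bases, so it raises the 540.2 bp and the 45.8% as well.

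The borders differed by sample as well as by strain. Measured inwards from the border of the site, the median N2 border lay at 71, 0 and 104 bp in replicates 1, 2 and 3, and the median *glp-4(bn2)* border at 692, 599 and 716.5 bp. Replicate 2 reached farthest in each strain, and its list was also the widest of the strain, at 17.6 Mb for N2 and 15.7 Mb for *glp-4(bn2)*.

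The 5 edge stretches described next were singled out because summits of all 3 N2 samples lay in them with the highest folds. The first lay on chromosome IV from 4760994 to 4762028 (1035 bp) in a site of 2256 bp. Its summits had folds of 3.69, 4.66 and 3.35 in N2 replicates 1, 2 and 3, at percentiles 75.2, 80.9 and 72.3 of the folds of their own lists. The *glp-4(bn2)* peaks of the site were weaker within their lists, with folds of 1.71, 2.01 and 1.66, and lay 448, 0 and 283 bp away. From the start of the site, the N2 summits lay at 480, 503 and 519 bp and the *glp-4(bn2)* summits at 1825, 1629 and 1664 bp, outside the stretch.

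The other 4 varied in how much of the site they took. On chromosome II, 2155 bp from 7096414 to 7098568 at the start of a site of 12452 bp had summit folds of 3.62, 3.11 and 3.01. The nearest *glp-4(bn2)* peaks there had folds of 7.42, 1.68 and 7.94 in replicates 1, 2 and 3. At the stretches named next, the nearest *glp-4(bn2)* peaks had folds of 1.63 to 2.52. On chromosome III, 2812 bp from 5604394 to 5607205 made up 78.9% of a site that only *glp-4(bn2)* replicate 3 called, with summit folds of 2.84, 3.06 and 2.89 in N2. A stretch of 1865 bp on chromosome III from 7308792 to 7310656 had folds of 2.76, 3.05 and 2.55, and all 3 *glp-4(bn2)* samples called its site. The last, 806 bp on chromosome III from 13471736 to 13472541, had folds of 2.61, 3.38 and 2.48. In all, 29 edge stretches and 0 gap-filling stretches held summits of all 3 N2 samples.

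Gap-filling stretches lay between neighbouring *glp-4(bn2)* peaks that N2 peaks ran across. The longest was on chromosome II from 6343700 to 6346648 (2949 bp) in a site of 13157 bp. N2 replicates 1, 2 and 3 covered 2949, 1702 and 2949 bp of it. Replicates 1 and 3 did so with a single peak each, of folds 6.95 and 6.43, and replicate 2 broke the stretch into 3 peaks, 1 of them with its summit inside at a fold of 1.89. The *glp-4(bn2)* samples called 3, 3 and 4 peaks in the site, and the peaks nearest to the stretch had folds of 2.58, 2.16 and 2.22. N2 replicate 2, whose list is the widest of the 6, was the N2 sample that left part of this gap open.

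In the 4 gap-filling stretches that came next in length, the strongest peak over the run had a fold of 4.87 to 9.21 in every N2 sample. On chromosome V, 2838 bp from 5271007 to 5273844 were covered over 2838, 2779 and 2838 bp in N2 replicates 1, 2 and 3, and each *glp-4(bn2)* sample had 2 peaks in the site. On chromosome II, 2826 bp from 11103464 to 11106289 were covered over 2345, 2826 and 2826 bp, with 2 peaks in N2 replicate 1. On chromosome IV, 2394 bp from 8865373 to 8867766 were covered in full by a single peak of every N2 sample, with folds of 7.30, 6.04 and 7.16, and *glp-4(bn2)* samples again had 2 peaks each. On chromosome III, 2317 bp from 4794415 to 4796731 were covered over 2098, 2317 and 2317 bp, again with 2 peaks in N2 replicate 1. The *glp-4(bn2)* peaks numbered 6, 5 and 5 in the site. Each of the 5 longest lay inside a broad peak of at least 2 N2 samples. None held an N2 summit, except for summits of N2 replicate 2 in the first and of N2 replicate 1 in the stretch from 11103464.

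The 472 gap-filling stretches lay in 423 openings between *glp-4(bn2)* bases, and 46 openings held more than 1. Counted per stretch, the opening was a median of 558.5 bp wide (quartiles 295.25 and 1095 bp). N2-only bases filled 279 of the openings from end to end. The same opening usually lay between a pair of peaks in each *glp-4(bn2)* sample: this held in all 3 samples for 356 stretches, in 2 for 47, in 1 for 67 and in none for 2. By sample, 397, 442 and 390 of the stretches lay between peaks of *glp-4(bn2)* replicates 1, 2 and 3. A single peak of at least 2 N2 samples bridged the stretch in 275 cases (58.3%), and of all 3 in 168. In 190 cases only 1 N2 sample had a bridging peak, and another covered the run with a peak of its own or with part of one. No N2 summit lay in 408 gap-filling stretches (86.4%), and summits of at least 2 N2 samples lay in 13 (2.75%).

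The stretches were short for their sites. Their lengths had a median of 367 bp (quartiles 232 and 642 bp) and reached 1135 bp at the 90th percentile. At least 300 bp were reached by 1066, at least 500 bp by 612 and at least 1000 bp by 215. Those 215 stretches (12.5%) held 37.2% of all bases in the set. Edge and gap-filling stretches were close in length, with medians of 363 and 378 bp. The *glp-4(bn2)*-only stretches had a median of 307 bp and a longest run of 2998 bp, and N2-only stretches in sites without a *glp-4(bn2)* peak had a median of 539.5 bp. Lengths near the limit of 150 bp followed on from those below it: 297 stretches were shorter than 200 bp, and 456 of the 2223 runs that were left out had at least 100 bp. The 3 shortest members had 150 bp, such as the edge run on chromosome II from 11985218 to 11985367, and the 3 longest runs below the limit had 149 bp, such as the one on chromosome III from 4650141 to 4650289.

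**Figure D2:**
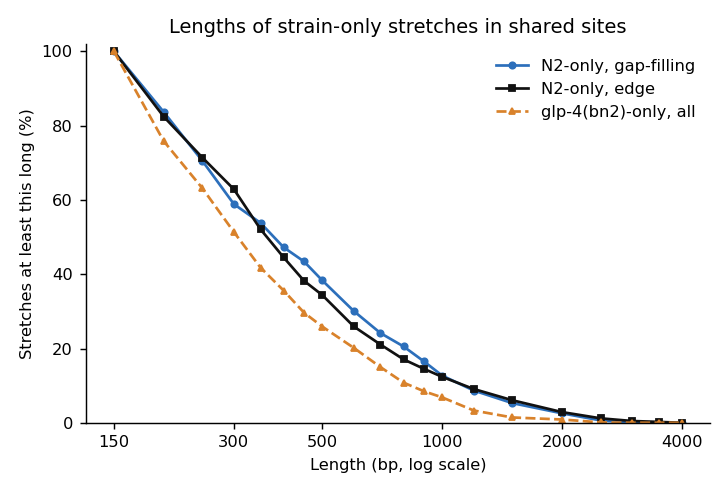
Percent of stretches (y axis) at least as long as the length on the x axis (bp, log scale), for N2-only gap-filling stretches, N2-only edge stretches and all *glp-4(bn2)*-only stretches. At 500 bp the curves stand at 38.3%, 34.4% and 25.9%, and at 1000 bp at 12.7%, 12.4% and 6.84%.

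Sites with an N2-only stretch were larger than the other sites that could have held one. Their median length was 4535 bp (quartiles 2412 and 8146.5 bp), against 1752 bp (925 and 3319.5 bp) for the 2323 sites without. The sites were ranked by length into 4 groups of about equal number. A large site has more room for a run, so the share of bases stands beside the share of sites. In the group of smallest sites (336 to 1139 bp), 10.2% of sites held a stretch, and the share was 22.4%, 36.2% and 62.4% in the next groups, up to sites of 4786 to 59421 bp. The share of bases in N2-only stretches varied less, from 3.97% through 6.04% and 7.46% to 7.37%. The median length of a stretch rose from 228 bp in the smallest sites to 404 bp in the largest. The mirrored stretches did not rise with site size in the same way: 9.04%, 25.9%, 23.3% and 10.1% of sites in these groups held a *glp-4(bn2)*-only stretch. Chromosome X held 263 of the 593 sites with such a stretch, and only 9 of the 1725 N2-only stretches. Long sites were rarer on X, so chromosome and site size are mixed in this contrast. These shares are descriptions and their differences were not tested.

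Place in the site went with site size. Gap-filling stretches lay in sites with a median length of 9867 bp and edge stretches in sites of 4377 bp. The gap-filling share was 1.03% of the stretches in the group of smallest sites, 10.2% and 15.5% in the next, and 39.5% in the largest. A gap-filling stretch needs *glp-4(bn2)* bases on both sides of it, and no peak is shorter than 300 bp. Small sites thus have little room for one, so the definition itself adds to this rise. A gap-filling stretch took up a median of 4.74% of its site and an edge stretch 10.3%. Per site, the N2-only stretches together made up a median of 14.2% of the bases (quartiles 6.60% and 25.4%), and at least 50% in 65 sites. A single stretch was found in 729 sites, 2 in 286, 3 in 80 and 4 or more in 40.

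**Figure D3:**
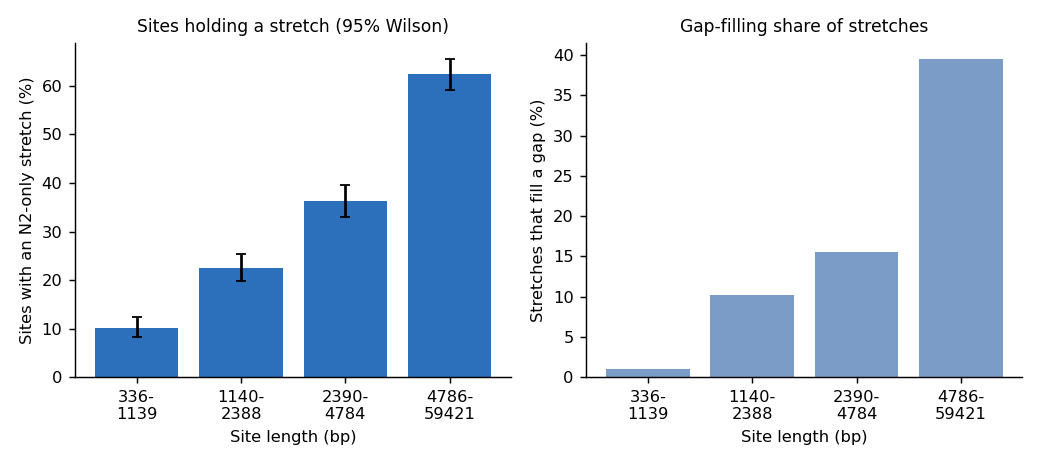
Left, percent of shared sites that hold an N2-only stretch in each of 4 groups by site length (bp), with 95% Wilson intervals; right, percent of the stretches in that group that fill a gap. The share of sites goes from 10.2% to 62.4% and the gap-filling share from 1.03% to 39.5% between the smallest and the largest sites. Small sites have less room for a stretch, above all for one that fills a gap.

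The sites with the most stretches were long domains that most samples of both strains covered with more than 1 peak. On chromosome III from 3697177 to 3739852, a site of 42676 bp held 8 stretches, all gap-filling and 162 to 1165 bp long. N2 replicate 2 covered it with 1 peak, and N2 replicates 1 and 3 with 7 peaks each. *glp-4(bn2)* replicates 1, 2 and 3 had 9, 6 and 12 peaks there. N2 samples covered 40080, 42676 and 39730 bp of the site and *glp-4(bn2)* samples 33017, 35843 and 32674 bp. The site was picked for its N2-only bases, so this gap between the strains carries no test. A site of 23887 bp on chromosome III from 6447240 to 6471126 held 7 stretches, 6 of them gap-filling. There N2 samples had 4, 2 and 3 peaks and *glp-4(bn2)* samples 5, 7 and 8. The third, on chromosome IV from 12362360 to 12375921, held 5 gap-filling and 2 edge stretches that made up 29.6% of its 13562 bp. Peak numbers overlapped between the strains in that site, with 3, 3 and 6 in N2 and 5, 3 and 3 in *glp-4(bn2)*, as they did in the first site.

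Over all sites with a stretch, *glp-4(bn2)* samples called 1.87, 1.62 and 2.04 peaks per site they called, and N2 samples 1.69, 1.18 and 1.73. The ranges overlap, because *glp-4(bn2)* replicate 2 had fewer peaks per site than N2 replicates 1 and 3. N2 samples covered 91.8%, 97.0% and 89.8% of the bases of these sites and *glp-4(bn2)* samples 72.5%, 77.9% and 70.5%. In the sites without an N2-only stretch the order was not the same: N2 samples covered 79.8%, 85.0% and 76.2%, and *glp-4(bn2)* samples 82.7%, 91.5% and 78.1%. The rule chose the first group of sites for this difference, and the second group is what it left over. Of the 593 sites with a *glp-4(bn2)*-only stretch, only 32 were in the first group. The order of the strains therefore carries no test in either group.

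Most of the stretches lay in sites that every sample had called. Peaks of all 3 *glp-4(bn2)* samples were present in the sites of 1507 stretches (87.4%), of 2 samples for 91 and of 1 sample for 127. All 6 samples had called the sites of 1505 stretches. Of the 472 gap-filling stretches, 457 lay in sites with peaks of all 3 *glp-4(bn2)* samples, and of the 1253 edge stretches 1050 did. The nearest *glp-4(bn2)* peak lay a median of 90, 0 and 93 bp away in replicates 1, 2 and 3. Its fold was at median percentiles 66.8, 69.1 and 65.4 of the list it came from, so the stretches lay mostly next to peaks above the middle of their lists. Many stretches lay in the largest sites, where the strongest *glp-4(bn2)* peaks rank high with or without a stretch (mean percentiles 88.8 and 89.4). In small sites they ranked lower where a stretch was present, as given below.

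N2 peaks over the stretches were also strong peaks of their lists, but mostly by a summit elsewhere. The strongest peaks that overlapped them had median folds of 3.70, 4.62 and 3.56 in N2 replicates 1, 2 and 3, at percentiles 75.3, 80.6 and 74.7. Of the 1725 stretches, 961 lay in the group of largest sites, where the strongest N2 peaks rank high with or without a stretch, as given below. A fold is given at the summit of a peak, and the level inside a stretch without a summit is not given in the lists. Summits of N2 replicates 1, 2 and 3 lay in 274, 101 and 300 of the 1725 stretches. The summits inside had median folds of 1.73, 1.84 and 1.77, at percentiles 22.2, 29.6 and 22.3. The median summit inside a stretch was thus low for its list, while single ones ranked higher, such as those of the stretch on chromosome IV from 4760994 at percentiles 75.2, 80.9 and 72.3.

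In small sites, the strongest *glp-4(bn2)* peak ranked low where an N2-only stretch was present. In the group of smallest sites, the median percentile of the strongest peak was 38.2, 38.2 and 33.6 for N2 replicates 1, 2 and 3 at the 88 sites with a stretch, and 20.7, 18.4 and 16.1 for the *glp-4(bn2)* replicates. For the 775 sites of that size without one it was 37.6, 44.0 and 34.8 in N2 and 31.5, 36.7 and 33.3 in *glp-4(bn2)*. The N2 and *glp-4(bn2)* values did not overlap in the first set and overlapped in the second. In the next larger group, the means were 52.3 in N2 and 37.9 in *glp-4(bn2)* with a stretch, and 55.0 and 56.5 without. In the group after that they were 75.4 and 69.0 with a stretch. Without one they were 71.3 and 74.5, where *glp-4(bn2)* was the higher and the samples did not overlap. In the group of largest sites the strains lay close together, with means of 89.7 ± 0.436 in N2 and 88.8 ± 0.455 in *glp-4(bn2)* (SD, n = 3) for the 540 sites with a stretch, and of 89.8 ± 0.487 and 89.4 ± 0.177 for the 325 without. The peaks share their borders with the rule, so these ranks carry no test.

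N2-only stretches lay almost entirely on the autosomes. Chromosomes II, III, IV and V held 376, 533, 472 and 335 of them, and X held 9. Of the sites that could hold one, 35.0%, 35.8%, 38.0% and 36.5% did so on chromosomes II to V. On X it was 7 of 351 sites (1.99%, 95% Wilson interval 0.969% to 4.06%). By bases, the stretches took up 0.365% of these X sites and 7.60% of the sites of chromosomes II to V together. The median site length was 2470 bp on X and 2361 bp on II to V together. In sum the 351 X sites held 0.970 Mb and the 3107 sites of II to V held 12.2 Mb, so long sites were rarer on X. The mirrored stretches lay the other way. *glp-4(bn2)*-only stretches were found in 64.0% of X sites (interval 59.2% to 68.5%) and in 7.41% to 13.8% of the sites of chromosomes II to V, and X held 440 of the 907 (48.5%). Neighbouring sites share chromatin and libraries, so the intervals describe counting error within these lists.

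**Figure D4:**
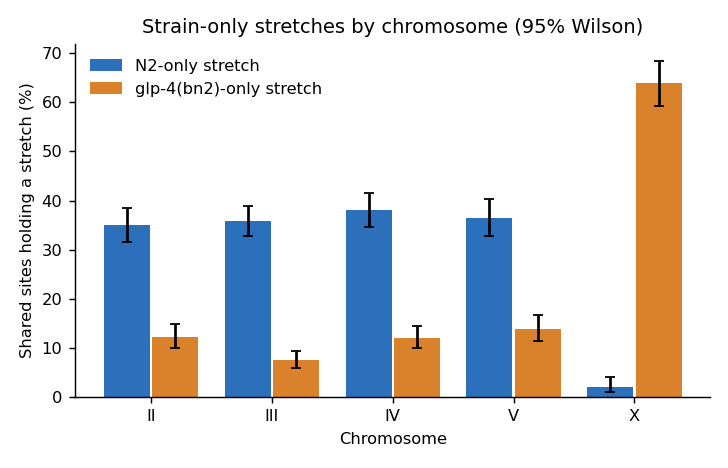
Percent of shared sites that hold an N2-only stretch (blue) or a *glp-4(bn2)*-only stretch (orange) on each of 5 chromosomes, with 95% Wilson intervals. Chromosomes II to V range from 35.0% to 38.0% for N2-only stretches and X stands at 1.99%, whereas *glp-4(bn2)*-only stretches reach 64.0% on X.

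The 9 stretches on X were few enough to describe together. The longest, an edge stretch of 1573 bp from 45797 to 47369 near the start of the chromosome, was covered over 1531, 1473 and 1573 bp by N2 replicates 1, 2 and 3, whose covering peaks had folds of 3.17, 2.87 and 4.75. The nearest *glp-4(bn2)* peaks lay 492, 368 and 527 bp away. A second stretch of 358 bp, from 47380 to 47737, followed in the same site. These are the only X members that N2 replicate 2 covered. The other 7 were 165 to 346 bp long and rested on N2 replicates 1 and 3 alone, with folds of 1.51 to 2.93. The count on X was between 2 and 23 under the other settings and 1 without N2 replicate 3, 2 without N2 replicate 1 and 15 without *glp-4(bn2)* replicate 2.

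Along the autosomes the stretches were spread widely. The middle 50% of each chromosome's span held 70.3% of the autosomal stretches and 65.6% of the bases in the sites that could hold one. Chromosome V was the most central, with 77.6% of its stretches against 71.4% of its site bases. In windows of 1000000 bp with at least 20 such sites, the share of site bases in N2-only stretches had a median of 6.99% on chromosomes II, III and V and of 8.47% on IV. Shares ranged from 0.921% to 11.8% on II, 2.44% to 11.2% on III, 3.17% to 12.2% on IV and 1.97% to 12.7% on V. The window with the most stretches was on chromosome III from 6000001 to 7000000, with 69 stretches among 48 sites.

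Whether the stretches recur was tested in samples that had no part in choosing them. For each pair of samples, 1 per strain, stretches were chosen from the other 4 lists and read in the pair that was held out. Between 1301 and 2069 stretches were chosen. Held-out N2 replicates 1, 2 and 3 covered 89.4%, 93.5% and 80.6% of their bases, and held-out *glp-4(bn2)* replicates 7.85%, 25.1% and 8.44%. Every N2 sample was above every *glp-4(bn2)* sample, and replicate 2 was the highest of the mutants. The means were 87.8% ± 6.58 in N2 and 13.8% ± 9.78 in *glp-4(bn2)* (SD, n = 3), a difference of 74.0 percentage points (two-sided exact permutation test over samples, p = 0.1). With 3 samples per strain no smaller p-value is possible, and this design cannot reach a p-value under 0.05. The test permuted the finished sample values and did not choose the stretches anew for each permutation. Each sample also helped to choose the stretches read in other samples, so the values are not independent. The word exact therefore refers only to the use of every permutation. For *glp-4(bn2)*-only stretches chosen in the same manner, N2 samples covered 18.3%, 34.9% and 8.01% and *glp-4(bn2)* samples 79.0%, 91.8% and 74.0% (exact permutation test, p = 0.1).

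**Figure D5:**
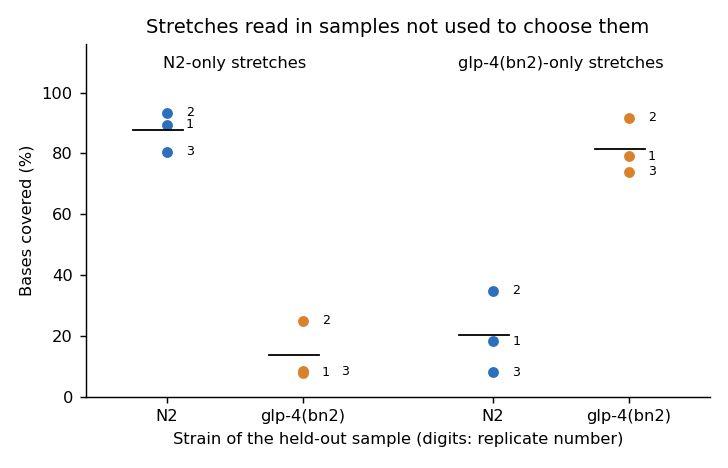
Percent of the bases of N2-only stretches (left) and *glp-4(bn2)*-only stretches (right) covered in samples that were not used to choose them, by strain, with 1 point per sample, its replicate number, and a line at the mean. Held-out N2 samples sit between 80.6% and 93.5% and held-out *glp-4(bn2)* samples between 7.85% and 25.1% for N2-only stretches.

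In the 6 lists as a whole, N2 replicates 1, 2 and 3 covered 91.9%, 95.1% and 83.0% of the bases in the 1725 stretches. All 3 covered 70.0% of them together, and all 3 covered the entire stretch in 176 cases (10.2%). The largest set, 722 stretches, was covered from end to end in N2 replicates 1 and 2 and not in 3. With N2 replicate 2 left out, and both other N2 samples then required, the stretches held 602025 bases in place of 934440, and 24.5% of sites held one. With *glp-4(bn2)* replicate 2 left out, 42.9% of sites did.

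Single lists differ within a strain as well, and this sets the error on such stretches. Runs of at least 150 bp covered in 1 N2 list and not in another, in sites that both hold, numbered 567 to 2899 and added up to 0.192 to 1.11 Mb. Between an N2 and a *glp-4(bn2)* list they numbered 1629 to 3891, with 0.812 to 2.21 Mb. The ranges overlap: N2 replicate 2 against N2 replicate 3 gave 2899 stretches, more than N2 replicate 3 against *glp-4(bn2)* replicate 2 with 1629. A single pair of lists from different strains therefore does not stand clear of a pair from the same strain.

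The width of the lists also differs by sample. N2 replicate 3 (15.4 Mb) and *glp-4(bn2)* replicate 2 (15.7 Mb) were closest in width across the strains. Between these, 1629 stretches with 0.812 Mb were found in N2 only and 2168 with 0.960 Mb in *glp-4(bn2)* only, so the excess on the N2 side was not present in this pair. The chromosomes still differed in it, with 17 of the N2-only and 490 of the *glp-4(bn2)*-only stretches on X. Over all pairs of an N2 and a *glp-4(bn2)* list, 14 to 74 N2-only and 378 to 597 *glp-4(bn2)*-only stretches lay on X, and these ranges did not overlap. Within a strain, 60 to 200 stretches of a pair of N2 lists and 138 to 383 of a pair of *glp-4(bn2)* lists were on X.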

How the data were processed

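MRG-1 ChIP-seq was measured in whole L4 worms, with 3 samples of N2 and 3 of *glp-4(bn2)*. The 6 input samples were not analysed here. Per the labels and the paper, the authors aligned read pairs with Bowtie2 2.3.2 against ce10. They ran MACS2 2.1.0 on every replicate, keeping peaks up to a q-value of 0.05 and extending reads to 300 bp. The control used for peak calling is not given in the sources used here. Each deposited list gives the start and end of a peak, a score, a fold enrichment at the summit as a ratio, the −log10 of its p-value and of its q-value, and the summit offset. Neither the peak lists nor the labels give read depth, so precision per base is unknown.

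Peaks of the 6 lists that overlapped by at least 1 bp were joined into sites, and runs covered in at least 2 N2 and 0 *glp-4(bn2)* samples were kept from 150 bp. Positions are counted from 1. Only peak borders were compared across lists, and folds were ranked within their own list. The background level is the Poisson mean on which most p-values of the weaker peaks of a list fell (69.9% to 77.4%). Peaks with the lowest p-values were left out of this fit. Held-out coverage was compared by a two-sided exact permutation test of the finished sample values, without choosing the stretches anew for each permutation. Shares have 95% Wilson intervals. The regions named are the 5 longest gap-filling and edge stretches, the longest per chromosome, the 5 with summits of all 3 N2 samples and the highest lowest fold, the 3 sites with most stretches, and the 3 runs on each side of 150 bp. Members, lists and tests were chosen with earlier results of these data known. Alternatives were other limits on length, samples, q-value, overlap and site, longer *glp-4(bn2)* peaks, a replicate block and leaving out each sample. The count on X under these was added after seeing the data. No annotation or sequence of ce10 was used here, so no genes were assigned and no sequence is shown. In a test on simulated data, 717 of 717 stretches in 2000 sites were found when simulated N2 and *glp-4(bn2)* lists were compared. The simulated samples of a strain had identical borders and each site held at most 1 stretch. This checks the code that finds runs and not its accuracy on lists whose borders vary. Python 3.11.15, numpy 2.4.6, scipy 1.17.1 and matplotlib 3.10.9 were used.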

Additional observations from a re-analysis of the deposited data

How the results depend on the processing

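When no sample was left out, 46 of 69 values under other settings were within 1.5 times the count given above, inside the interval of the share or median, or of the same direction. At a smallest length of 100 bp the median length was 294 bp and 39.2% of sites held a stretch, and at 300 bp there were 1066 stretches with a median of 547.5 bp in 22.4% of sites. Required in all 3 N2 samples, the stretches held 620402 bases in 25.5% of sites and 30.8% filled gaps, and with at least 1 N2 sample they held 1435638 bases in 45.2% of sites and 21.8% filled gaps. With at most 1 *glp-4(bn2)* sample allowed, 2958 stretches held 1566203 bases in 51.8% of sites. At a q-value of at most 1e-05 the median length was 395 bp. With *glp-4(bn2)* peaks lengthened by 100 bp it was 416 bp, with 24.6% of sites and 24.2% gap-filling. The cause was not tested, beyond the limits that define each setting. On X the count was 2 to 23 with all samples kept.

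When 1 sample was left out at a time, 28 of 42 values met these limits. Bases ranged from 602025 without N2 replicate 2 to 1236115, the median length from 348 to 368 bp, the gap-filling share from 22.9% to 31.4%, the share of sites from 24.5% to 42.9% and the count on X from 1 to 15. The held-out difference ranged from 60.5 to 68.0 percentage points. With the replicate block, that is with only samples of the same number held out together, it was 74.4 (sign-flip permutation test over 3 numbers, p = 0.25, the smallest possible). The labels share numbers only and do not say that they pair the samples. Across the 3458 sites, the covered share minus the strain mean correlated by -0.0134, 0.260 and 0.162 between samples numbered 1, 2 and 3. N2 replicates 2 and 3 correlated best with the *glp-4(bn2)* sample of their own number, against -0.242 to 0.0526 with other numbers. N2 replicate 1 correlated best with *glp-4(bn2)* replicate 3 (0.163). Whether samples of the same number shared a batch was not tested. As the labels state no pairing, the numbers were used as pairs only in this block. These tests cannot pass 0.05 and say nothing about stability. Depth sets which fold can be called and is not given in the lists.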
